A study of Homo sapiens with 4 samples.

Results

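The genes described here encode the subunits of the mitochondrial respiratory chain, that is complexes I to IV and the ATP synthase (complex V). They were taken by gene symbol, from a list of names drawn up with earlier results of these data known: the NDUF, SDH, UQCR, CYC1, COX, ATP5F1, ATP5M, ATP5P and MT-ND, MT-CO, MT-CYB and MT-ATP names. The patterns matched 144 symbols among 41084 identifiers. Of these, 90 were subunit genes, 53 were pseudogenes with subunit-like names, and 1 was a further coding gene, ATP5MGL, listed at 0 in every library. The 90 subunits comprise 77 nuclear genes and 13 genes of the mitochondrial genome. All 90 passed the filter on low counts and were tested. The nuclear genes divide into 36 of complex I, 4 of complex II, 9 of complex III, 11 of complex IV and 17 of complex V, and the mitochondrial genes into 7, 0, 1, 3 and 2. NDUFA4 carries a complex I name but is known as a complex IV subunit, and it was counted in complex IV.

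RNA was measured in OCI-AML3, an established human acute myeloid leukaemia cell line, in the setting of a study on CEBPB, inflammatory cytokines and resistance to BCL2 and MDM2 inhibitors. There were 4 poly(A) RNA libraries: 2 with the genotype label Plex CEBPB (called CEBPB here) and 2 with the label Plex Control (called Control). The labels give no drug, time point or further allele, and they do not say whether the 2 libraries of a group came from separate cultures or from 1 clone, so p-values measure only the spread between these libraries, which may be technical. CEBPB, a basic leucine zipper transcription factor of myeloid differentiation, was at 4.72 and 4.47 TPM in the Control libraries and at 536 and 339 TPM in the CEBPB libraries, so its transcript follows the labels. Library totals were 18151225 to 21950575 estimated counts. All 12 myeloid markers were above 1 TPM in at least 1 library (summed level 1945 to 2025 TPM in Control and 8152 to 8453 TPM in CEBPB). No T cell, erythroid or epithelial marker was above 1 TPM in any library. Of 5 B cell markers CD79B and PAX5 were above 1 TPM in at least 1 library (summed list 7.16 to 8.09 TPM in Control and 2.52 to 2.97 TPM in CEBPB). Of 5 fibroblast markers 3 were (4.12 to 4.35 TPM in Control and 25.4 to 25.7 TPM in CEBPB). The part of these markers in the results was not tested. TPM, a share of all transcripts, is corrected for transcript length, so it can be compared between genes, and values are given for replicate 1 and then replicate 2 of each group.

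The respiratory chain passes electrons from NADH (through complex I) and from succinate (through complex II) to ubiquinone, then through complex III and cytochrome c to complex IV, where oxygen is reduced. Complexes I, III and IV pump protons across the inner mitochondrial membrane, and complex V uses the gradient to make ATP. Most subunits are encoded in the nucleus and imported. A small set, the hydrophobic core of every complex but complex II, is transcribed from both strands of mitochondrial DNA as long precursors that are cut into single messengers. Leukaemia cells of the myeloid lineage are known for reliance on this pathway.

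Most subunit messengers were lower in the CEBPB libraries, by modest amounts. Of 77 nuclear genes, 52 fell (67.5%), 3 rose and 22 did not pass the test (edgeR quasi-likelihood test, Benjamini-Hochberg adjusted p under 0.05 over 13698 identifiers). Over all identifiers tested, 24.7% were called lower and 23.7% higher. The median log2 fold change of CEBPB over Control was -0.33 for the nuclear genes, against 0.00092 for all identifiers tested. Of the 13 mitochondrial genes 6 fell and none rose, with a median of -0.32. All 13 log2 fold changes were negative, so the count of genes higher at an unadjusted p under 0.05 could only be 0. In a test against a change of 1.5-fold, 5 nuclear genes were lower and none of the 90 was higher, where 8.67% of all identifiers were called lower and 8.66% higher. Those 5 were ATP5F1D (chr19:1241746-1244826, GRCh38, GENCODE v29), ATP5MC1 (chr17:48892765-48895871), NDUFB10 (chr16:1959508-1961975), NDUFS7 (chr19:1383527-1395589) and NDUFV1 (chr11:67605653-67612554), and the 3 rises were NDUFA7 (chr19:8308768-8321396), COX7B (chrX:77899438-77907373) and NDUFA4 (chr7:10931951-10940256). In bulk RNA, fewer cells of a type and less RNA per cell cannot be told apart.

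The scale between libraries bears on how many of these pass. The trimmed mean of M values (TMM) centres the median gene on no change. With library totals alone, all identifiers tested moved up by a median of 0.18 on the log2 scale, and 17.2% were called lower and 32.3% higher. On that scale 29 nuclear genes were lower (37.7%), 4 were higher and 2 mitochondrial genes were lower, with a nuclear median of -0.15. The 29 were all among the 52. On the same scale 11 nuclear genes that had not passed turned from negative to positive. Without Control replicate 1, the TMM count of nuclear genes lower was 28. There were 26 nuclear genes lower under every scaling, test, filter and left-out library that was run and in which the gene was fitted, other than the 1.5-fold test, and the 3 rises each missed the threshold in at least 1 left-out library.

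**Figure D1:**
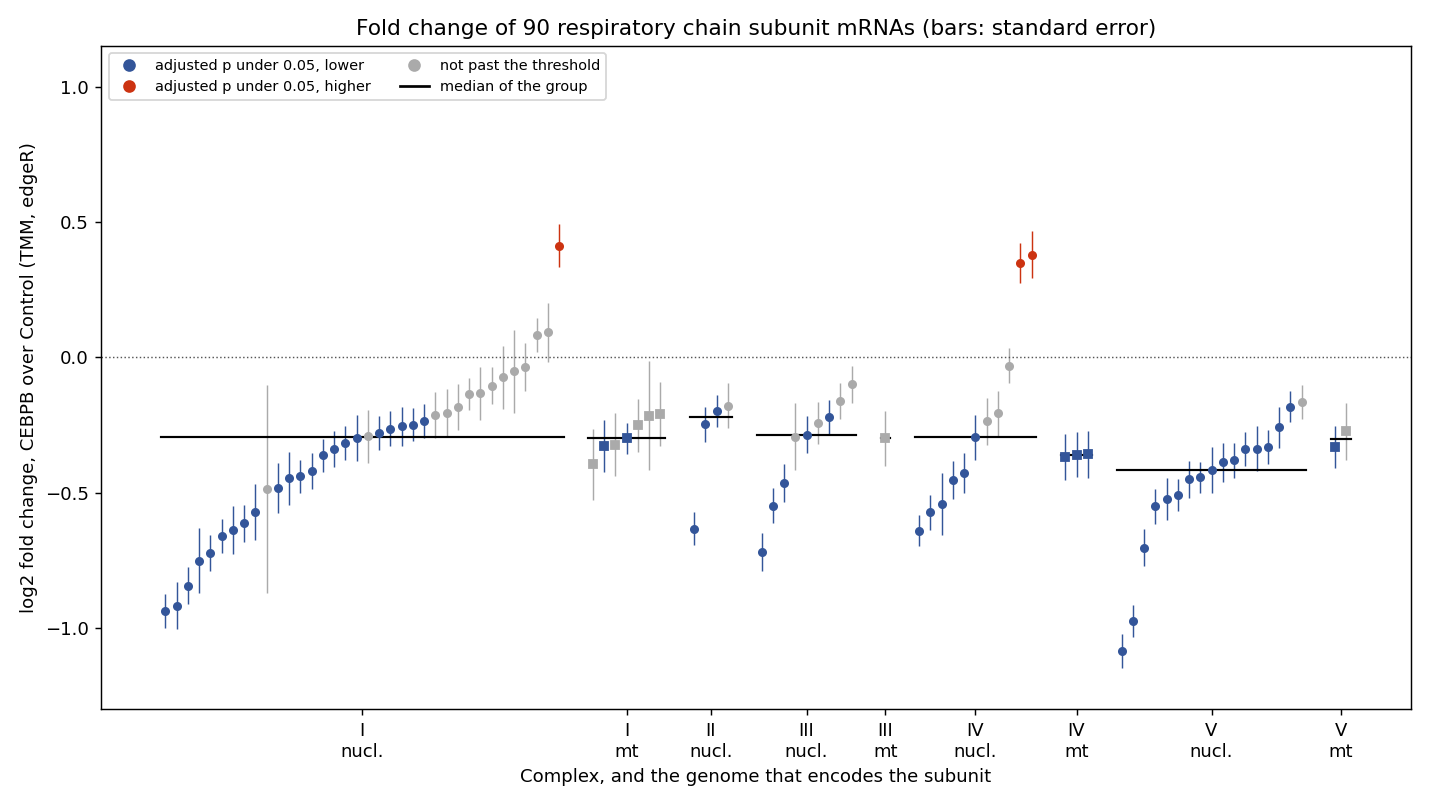
Each point is the log2 fold change of 1 subunit gene, CEBPB over Control, from edgeR with TMM scaling, with its standard error as a bar; genes are sorted within a complex and within the genome that encodes them (circles nuclear, squares mitochondrial). Most points lie below 0, and the lowest are ATP5F1D at -1.09 and ATP5MC1 at -0.97, while NDUFA7, COX7B and NDUFA4 lie at 0.41, 0.38 and 0.35.

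In complex I, the entry point for NADH, 22 of 36 nuclear genes fell, 1 rose and 13 did not pass (median log2 fold change -0.30, with an SD between libraries of 0.051). The size of the fall varied widely between subunits, from -0.94 for NDUFB10 to 0.41 for NDUFA7. With NDUFA4 counted in complex I, 22 of 37 fell and 2 rose. In TPM, both CEBPB libraries were below both Control libraries for 22 of the 36 genes and above them for 5. Over all identifiers tested, 28.6% lay below without overlap and 48.7% above.

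The matrix arm of complex I carries the flavin and the iron-sulphur clusters. NDUFV1, which binds NADH and the flavin, was at 158 and 149.6 TPM in Control and 102 and 92.2 TPM in CEBPB. It fell (log2 fold change -0.84, SE 0.068, edgeR adjusted p = 0.00061), and the groups did not overlap. NDUFS6, a zinc-binding subunit, was at 294 and 249 TPM in Control and 203 and 162 TPM in CEBPB. It fell as well (log2 fold change -0.75, SE 0.12, edgeR adjusted p = 0.0050), without overlap, though the gap between the groups was about as wide as that between the Control libraries. NDUFA2 was the third gene of this NADH-oxidising module to fall (log2 fold change -0.26, SE 0.065, edgeR adjusted p = 0.021). NDUFV2, an iron-sulphur subunit that pairs with NDUFV1 in the same module, went from 162 and 157 TPM to 200.2 and 183 TPM and did not pass (log2 fold change 0.08, SE 0.061, edgeR adjusted p = 0.32). With library totals NDUFV2 was called higher (0.26, edgeR adjusted p = 0.031). The transcripts of this pair thus had log2 fold changes of opposite sign, and the difference between them was not tested. NDUFS1, NDUFS4, NDUFV3, NDUFA6 and NDUFA12 of this module did not pass, and an identifier without a symbol has the same values as NDUFS1. NDUFA6 was at 64.8 and 58.8 TPM in Control and 30.4 and 69.1 TPM in CEBPB, so its 2 CEBPB libraries lay on either side of the Control libraries.

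NDUFA7 was the only complex I gene called higher. It was at 39.7 and 43.3 TPM in Control and 61.8 and 63.3 TPM in CEBPB, and the groups did not overlap. Its log2 fold change was 0.41 (SE 0.081, edgeR adjusted p = 0.010), and it passed in 3 of 4 fits with a library left out.

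Falls were also found in the module that hands electrons to ubiquinone. NDUFS7, an iron-sulphur subunit at the ubiquinone site, was at 62.4 and 63.3 TPM in Control and 41.3 and 34.0 TPM in CEBPB. It fell without overlap between the groups (log2 fold change -0.92, SE 0.088, edgeR adjusted p = 0.00099). NDUFS8, which holds a pair of iron-sulphur clusters, went from 114 and 109 TPM to 79.2 and 90.2 TPM (log2 fold change -0.57, SE 0.10, edgeR adjusted p = 0.0077). NDUFS3 (-0.44), NDUFA9 (-0.26) and NDUFA5 (-0.25) fell by less. With library totals NDUFS7, NDUFS8 and NDUFS3 were still called lower.

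In the membrane arm, which pumps protons, 13 of 20 nuclear genes fell and 7 did not pass. NDUFB10, an accessory subunit with disulphide bonds on the intermembrane side, was at 111 and 107 TPM in Control and 66.4 and 62.3 TPM in CEBPB. It had the smallest adjusted p in complex I (log2 fold change -0.94, SE 0.064, edgeR adjusted p = 0.00039), and an identifier with no symbol holds the same values in all 4 libraries. NDUFB7 went from 187 and 181 TPM to 134 and 118 TPM (log2 fold change -0.72, SE 0.067, edgeR adjusted p = 0.00093). NDUFB8, a subunit whose protein is widely used as a marker of assembled complex I, went from 303 and 290.4 TPM to 219 and 206 TPM (log2 fold change -0.66, SE 0.061, edgeR adjusted p = 0.00092). NDUFA10 was at 72.1 and 63.3 TPM in Control and 51.8 and 46.7 TPM in CEBPB (log2 fold change -0.64, SE 0.089, edgeR adjusted p = 0.0032). NDUFB9 was at 412 and 404 TPM in Control and 297 and 306 TPM in CEBPB (log2 fold change -0.61, SE 0.070, edgeR adjusted p = 0.0017). These 5 genes had no overlap between the groups. NDUFB6, NDUFB11, NDUFA11, NDUFB2, NDUFC2, NDUFA13, NDUFB5 and NDUFA8 fell by between -0.48 and -0.24 on the log2 scale. NDUFB1, NDUFA1, NDUFS5, NDUFB3, NDUFB4, NDUFA3 and NDUFC1 did not pass, with log2 fold changes from -0.21 to 0.09. NDUFS5, NDUFB3, NDUFB4 and NDUFA3 turned positive with library totals. NDUFA3 had the lowest level of the nuclear subunits, 10.5 to 13.4 TPM.

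Complex II, succinate dehydrogenase, is wholly nuclear and also part of the citric acid cycle. SDHB, its iron-sulphur subunit, was at 274 and 263 TPM in Control and 199 and 192 TPM in CEBPB. It fell (log2 fold change -0.63, SE 0.062, edgeR adjusted p = 0.0011), and the groups did not overlap. SDHA, the flavin subunit, was at 139 and 136 TPM in Control and 139 and 124 TPM in CEBPB and was called lower by less (log2 fold change -0.25, SE 0.065, edgeR adjusted p = 0.026). Its TPM ranges overlapped. SDHD, a membrane anchor, was at 197 and 193 TPM in Control and 197 and 189 TPM in CEBPB and was also called lower (log2 fold change -0.20, SE 0.059, edgeR adjusted p = 0.040). SDHC, the other anchor, was at 102 and 89.3 TPM in Control and 97.9 and 93.3 TPM in CEBPB and did not pass (log2 fold change -0.18, SE 0.084, edgeR adjusted p = 0.14). With library totals, only SDHB of the 4 was called lower, and the log2 fold change of SDHC was 0.0013. The TMM values of SDHA, SDHC and SDHD lay between -0.25 and -0.18, against -0.63 for SDHB.

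In complex III, which passes electrons from ubiquinol to cytochrome c, 5 of 9 nuclear genes fell, none rose and 4 did not pass (median -0.29, SD between libraries 0.059). CYC1, the cytochrome c1 that hands the electron to cytochrome c, was at 213 and 209.6 TPM in Control and 143 and 148 TPM in CEBPB. It had the largest fall of the complex (log2 fold change -0.72, SE 0.071, edgeR adjusted p = 0.0011), without overlap. UQCRC2, a core protein, was at 276 and 265 TPM in Control and 211 and 207 TPM in CEBPB (log2 fold change -0.55, SE 0.063, edgeR adjusted p = 0.0018). UQCRH, the acidic hinge protein beside CYC1, was at 773 and 709 TPM in Control and 615 and 600.0 TPM in CEBPB (log2 fold change -0.47, SE 0.070, edgeR adjusted p = 0.0041). In all 3 genes the CEBPB libraries lay close together and below the Control libraries. UQCRQ (-0.29) and UQCRFS1, the Rieske iron-sulphur protein (-0.22), were also called lower, but not with library totals. UQCRC1, the partner of UQCRC2, was at 207 and 223 TPM in Control and 221 and 215 TPM in CEBPB and did not pass (log2 fold change -0.16, SE 0.067, edgeR adjusted p = 0.10). UQCR11, UQCR10 and UQCRB did not pass either (-0.29, -0.24 and -0.10).

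Complex IV, cytochrome c oxidase, held 2 of the 3 rises. Of its 11 nuclear genes, 6 fell, 2 rose and 3 did not pass (median -0.30, SD between libraries 0.043). Without NDUFA4 the median of the other 10 was -0.36. COX5A, which binds on the matrix side, was at 461 and 457 TPM in Control and 344 and 323 TPM in CEBPB (log2 fold change -0.64, SE 0.057, edgeR adjusted p = 0.00082). COX7C was at 621 and 585 TPM in Control and 464 and 454 TPM in CEBPB (log2 fold change -0.57, SE 0.065, edgeR adjusted p = 0.0016). COX6C was at 766 and 708 TPM in Control and 643 and 577 TPM in CEBPB (log2 fold change -0.45, SE 0.070, edgeR adjusted p = 0.0045). None of these 3 overlapped between the groups. COX4I1, which binds the catalytic core, and COX5B, which binds zinc, fell by similar amounts (-0.43 and -0.54), and COX8A by less (-0.30). An identifier without a symbol has the same values as COX5B.

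COX7B was at 244 and 214 TPM in Control and 334 and 339 TPM in CEBPB. Both CEBPB libraries were above both Control libraries, and the gene rose (log2 fold change 0.38, SE 0.087, edgeR adjusted p = 0.017). NDUFA4 was at 84.5 and 91.2 TPM in Control and 126 and 127 TPM in CEBPB. It rose by a similar amount (log2 fold change 0.35, SE 0.074, edgeR adjusted p = 0.013). COX7B passed in 2 and NDUFA4 in 3 of the 4 fits with a library left out. COX7A2, among the most abundant nuclear subunits, was at 689 and 705 TPM in Control and 769 and 775 TPM in CEBPB. Its TPM lay above without overlap, while its log2 fold change was -0.03 with TMM and 0.15 with library totals, and it passed on neither scale (edgeR adjusted p = 0.72 and edgeR adjusted p = 0.068). COX6B1 and COX6A1 did not pass (-0.24 and -0.21). The 10 nuclear subunits of this complex taken without NDUFA4 therefore span -0.64 to 0.38.

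**Figure D2:**
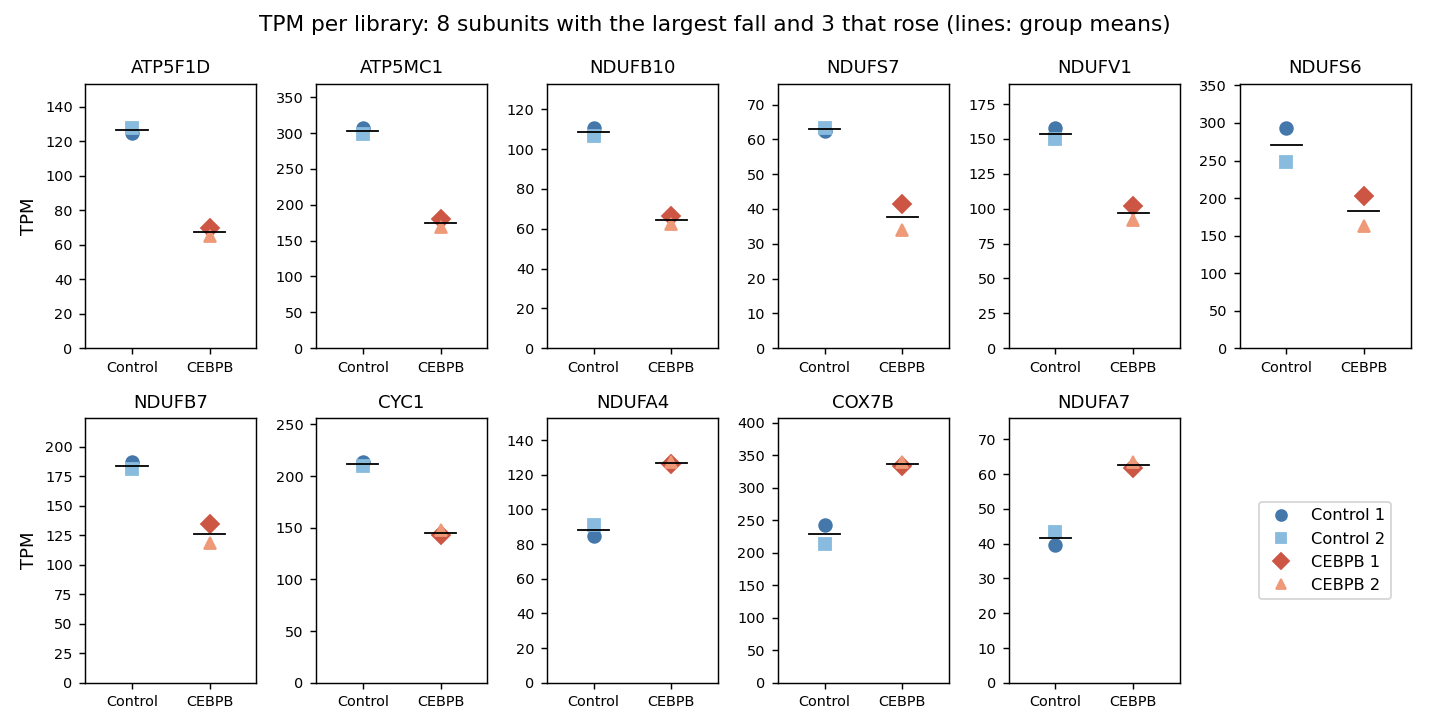
TPM of 11 nuclear subunits in each of the 4 libraries, with the group means as lines; each axis starts at 0. The 8 genes with the largest fall have both CEBPB libraries below both Control libraries, and NDUFA4, COX7B and NDUFA7 have both above.

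In complex V, the ATP synthase, nearly every gene was called lower. Of the 17 nuclear genes 16 fell, none rose and 1, ATP5MF, did not pass. The median was -0.42 (SD between libraries 0.020). With library totals 9 of the 17 were called lower, with a median of -0.24.

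The catalytic F1 head fell in all 5 subunits. ATP5F1D, the delta subunit of the central stalk, was at 125 and 128 TPM in Control and 70.0 and 64.9 TPM in CEBPB. This was the largest fall of all 90 genes (log2 fold change -1.09, SE 0.062, edgeR adjusted p = 0.00026). ATP5F1B, the catalytic beta subunit, was at 779 and 774 TPM in Control and 648 and 589 TPM in CEBPB (log2 fold change -0.51, SE 0.058, edgeR adjusted p = 0.0018). ATP5F1A, the alpha subunit, fell by a similar amount (log2 fold change -0.44, SE 0.059, edgeR adjusted p = 0.0027). ATP5F1C (-0.34) and ATP5F1E (-0.34), the other stalk subunits, fell by less. ATP5F1D thus lay apart from the other 4, whose log2 fold changes were between -0.51 and -0.34.

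ATP5MC1, ATP5MC2 and ATP5MC3 encode the same mature c subunit of the proton-driven ring with different import sequences. ATP5MC1 was at 308 and 298 TPM in Control and 181 and 168 TPM in CEBPB (log2 fold change -0.97, SE 0.060, edgeR adjusted p = 0.00031). ATP5MC3 was at 487 and 469 TPM in Control and 391 and 349 TPM in CEBPB (log2 fold change -0.55, SE 0.065, edgeR adjusted p = 0.0019). ATP5MC2 was at 362 and 386 TPM in Control and 288 and 301 TPM in CEBPB (log2 fold change -0.52, SE 0.077, edgeR adjusted p = 0.0039). All 3 fell without overlap and stayed lower with library totals, ATP5MC1 by the most.

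In the peripheral stalk, which holds the head still, ATP5PB was at 556 and 568 TPM in Control and 385 and 395 TPM in CEBPB (log2 fold change -0.70, SE 0.068, edgeR adjusted p = 0.0010). ATP5PF, ATP5PO and ATP5PD were called lower by less (-0.42, -0.38 and -0.18). ATP5PD is the member just inside the threshold (edgeR adjusted p = 0.048). Of the small membrane subunits, ATP5ME, ATP5MG, ATP5MJ and ATP5MK fell (-0.45, -0.39, -0.33 and -0.26). ATP5MF, the most abundant of the nuclear subunits, was at 797 and 793 TPM in Control and 800.1 and 805 TPM in CEBPB, and did not pass (log2 fold change -0.17, SE 0.062, edgeR adjusted p = 0.077).

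The 13 mitochondrial genes had a median Control level of 3632 TPM against 197 TPM for the nuclear genes, with MT-ND6, the lowest, below several nuclear genes. Their log2 fold changes lay in a narrow range, from -0.40 to -0.21, with a median SE of 0.098 against 0.069 for the nuclear genes. In complex IV, MT-CO1, MT-CO2 and MT-CO3 encode the catalytic core. MT-CO1 was at 8383 and 8681 TPM in Control and 7124 and 7919 TPM in CEBPB (log2 fold change -0.36, SE 0.087, edgeR adjusted p = 0.021). MT-CO2 was at 8746 and 9212 TPM in Control and 7556 and 8253 TPM in CEBPB (log2 fold change -0.36, SE 0.083, edgeR adjusted p = 0.017). MT-CO3 was at 6907 and 7551 TPM in Control and 6069 and 6586 TPM in CEBPB (log2 fold change -0.37, SE 0.087, edgeR adjusted p = 0.018). All 3 fell, without overlap.

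In complex I, MT-ND4 was at 3438 and 3825 TPM in Control and 3108 and 3425 TPM in CEBPB and fell (log2 fold change -0.33, SE 0.096, edgeR adjusted p = 0.038). MT-ND3 was at 1816 and 1879 TPM in Control and 1716 and 1683 TPM in CEBPB and fell (log2 fold change -0.30, SE 0.057, edgeR adjusted p = 0.0093). The other 5 of this complex did not pass. MT-ND5 was at 1048 and 1166 TPM in Control and 859.8 and 1039 TPM in CEBPB (log2 fold change -0.40, SE 0.13, edgeR adjusted p = 0.053), with no overlap. For MT-ND1, MT-ND2 and MT-ND4L, the second CEBPB library lay above the first Control library, so the groups overlapped. MT-ND1 was at 2556 and 2834 TPM in Control and 2416 and 2848 TPM in CEBPB (-0.21). MT-ND2 was at 2575 and 2819 TPM in Control and 2237 and 2631 TPM in CEBPB (-0.32). MT-ND4L, whose gene overlaps MT-ND4 by 7 bases, was at 4420.2 and 4802 TPM in Control and 4119 and 4629 TPM in CEBPB (-0.25). MT-ND6, the subunit gene on the other strand of the mitochondrial genome, was at 418 and 398 TPM in Control and 497 and 303 TPM in CEBPB. Its CEBPB libraries lay on either side of the Control libraries (log2 fold change -0.22, SE 0.20, edgeR adjusted p = 0.42). Whether the quantification used the strand is not given in the sources used here.

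MT-CYB, the cytochrome b of complex III, was at 2044 and 2251 TPM in Control and 1859 and 2084 TPM in CEBPB and did not pass (log2 fold change -0.30, SE 0.10, edgeR adjusted p = 0.057). In complex V, MT-ATP8 was at 8735 and 9779.6 TPM in Control and 8225 and 8423 TPM in CEBPB and fell (log2 fold change -0.33, SE 0.076, edgeR adjusted p = 0.017). Its effective length, the mean usable transcript length, was 37.6 and 37.0 bases in Control and 37.5 and 37.2 bases in CEBPB. TPM is corrected by that short length, so its level is hard to set beside those of longer genes. MT-ATP6, the subunit beside the c ring, was at 5219 and 5727 TPM in Control and 4775 and 5446 TPM in CEBPB and did not pass (log2 fold change -0.27, SE 0.10, edgeR adjusted p = 0.080). The genes of MT-ATP8 and MT-ATP6 overlap by 46 bases and share a messenger, so reads there cannot be assigned to 1 of them alone. No mitochondrial call passed in all 4 fits with a library left out: the count lower was 0 without Control replicate 2, 2 without Control replicate 1 and 12 without CEBPB replicate 2. Nuclear copies of mitochondrial genes, 404 in the files, summed to 543 and 581 TPM in Control and 537 and 593 TPM in CEBPB, and reads of near-identical sequence cannot be told apart.

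**Figure D3:**
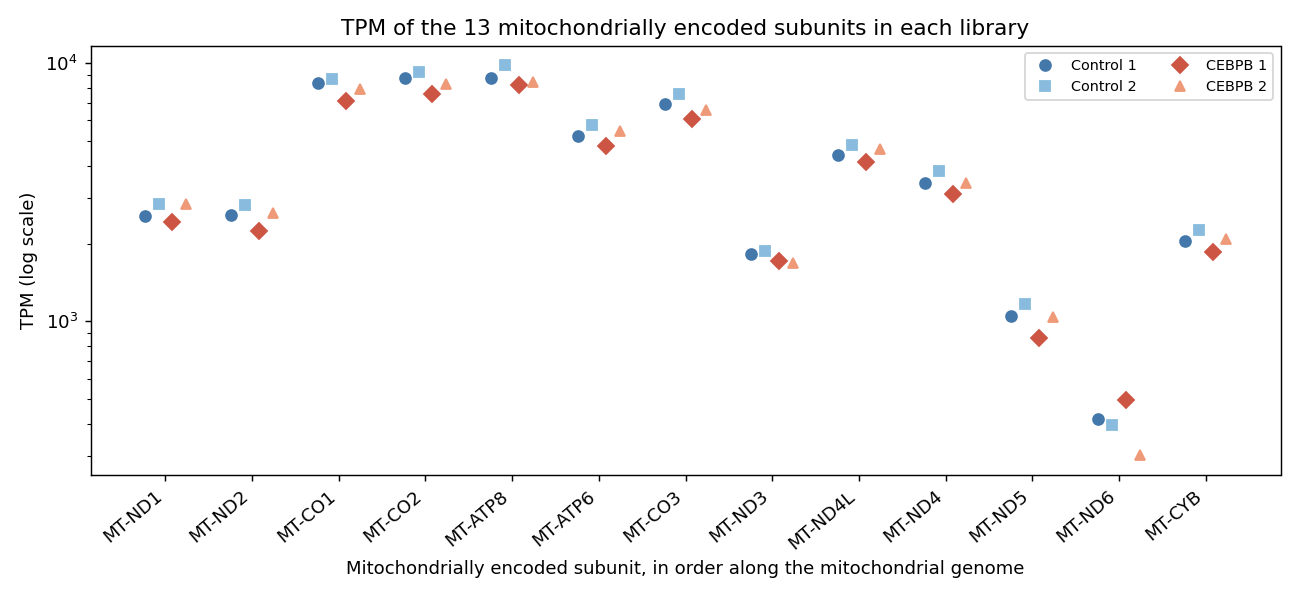
TPM, on a log axis, of the 13 mitochondrially encoded subunits in each of the 4 libraries, in order along the mitochondrial genome. Within most genes Control 2 is the highest and CEBPB 1 the lowest library; in MT-ND6, CEBPB 1 is the highest at 497 TPM and CEBPB 2 the lowest at 303 TPM.

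The nuclear and mitochondrial sets were then summed in each library. Each sum is a share of all TPM in its library. Between groups it is thus read on the scale of library totals, where all identifiers tested moved up by a median log2 of 0.18. The mitochondrial sum over the nuclear sum needs no scaling between libraries, and neither do the shares of nuclear subunit TPM given below. Summed over 77 genes, the nuclear subunits took 20348 and 19634 TPM in Control and 17866 and 17387 TPM in CEBPB, a ratio of 0.882, without overlap. The 13 mitochondrial genes took 56304 and 60925 TPM in Control and 50561 and 55269 TPM in CEBPB, a ratio of 0.903, also without overlap. The mitochondrial sum over the nuclear sum was 2.77 and 3.10 in Control and 2.83 and 3.18 in CEBPB, so the ranges overlapped. The log2 ratio differed by 0.034 between the groups, against an SD within groups of 0.12. Without Control replicate 1 the difference turned negative (-0.049), and without CEBPB replicate 2 as well (-0.050). The difference was thus small beside the spread within groups, but that spread was a rise from replicate 1 to replicate 2 in both groups. Compared by replicate number, the ratio was higher in CEBPB each time (2.83 against 2.77, and 3.18 against 3.10). Without Control replicate 2 or CEBPB replicate 1 the difference was larger and positive (0.116 and 0.117). All these values, of either sign, came from leaving out a library whose same-numbered partner in the other group was kept. Whether the numbers pair the libraries is not known, so the spread alone does not settle the difference. No permutation test was used for it, since 2 against 2 libraries cannot give a two-sided exact p below 0.333.

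Between complexes, summed nuclear TPM in CEBPB was 0.886 of Control for complex I, 0.883 for complex II, 0.898 for complex III, 0.925 for complex IV and 0.842 for complex V. The mitochondrial sums had another order, at 0.927 for complex I, 0.918 for complex III, 0.879 for complex IV and 0.912 for complex V. Complex IV thus had the highest nuclear and the lowest mitochondrial ratio. As a share of all nuclear subunit TPM in the same library, complex V held 33.2% and 34.0% in Control and 32.4% and 31.8% in CEBPB. Its share was lower in both CEBPB libraries than in either Control library. Complex IV held 23.5% and 23.4% in Control and 24.4% and 24.9% in CEBPB, higher in both. Complex III was also higher in both, at 12.54% and 12.41% against 12.60% and 12.82%. The gap between its groups was narrower than that between its Control libraries. The shares add up to a fixed whole, so a fall in 1 complex raises the shares of others. The shares of complexes I and II overlapped between the groups (26.7% to 27.3% and 3.44% to 3.54% over all libraries). The same limit of the exact permutation test holds for these shares, so they are given as values.

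**Figure D4:**
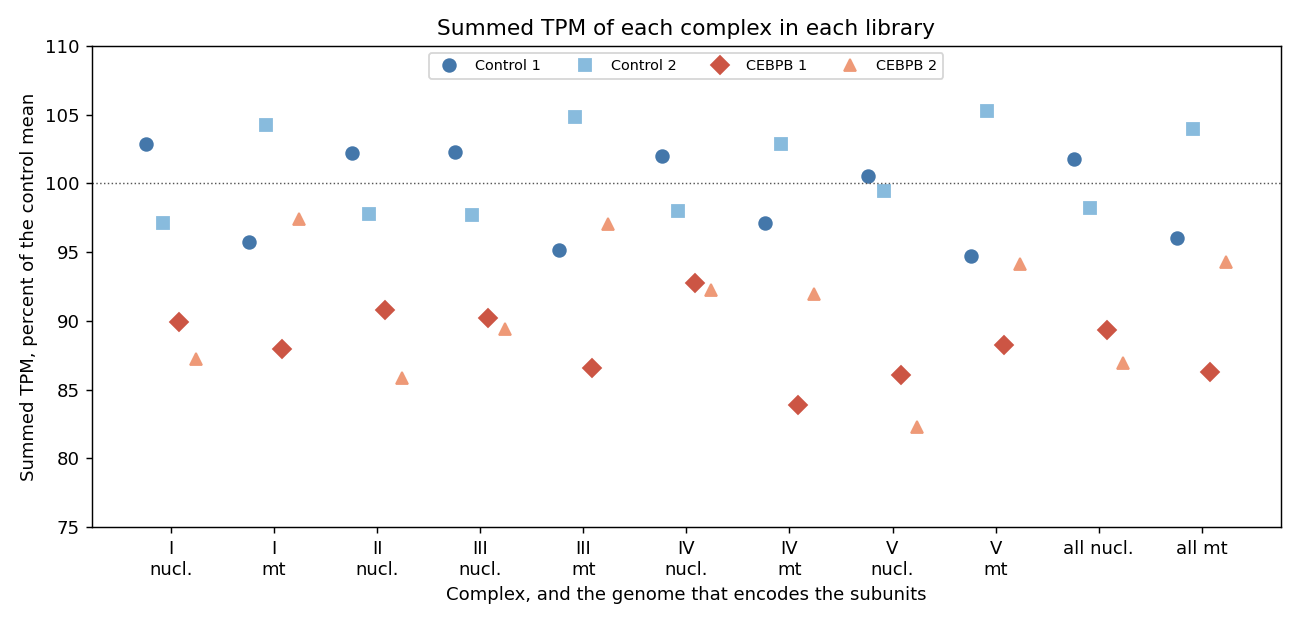
Summed TPM of the subunits of each complex in each library, as a percent of the mean of the Control libraries, for nuclear (nucl.) and mitochondrially encoded (mt) subunits; the axis runs from 75 to 110 percent. The CEBPB libraries are below the Control libraries in all nuclear sums, whose CEBPB to Control ratio is lowest for complex V at 0.842.

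Promoter sequence is shown for the 3 largest falls and the 2 rises that have a window, because these genes moved in opposite directions within 1 pathway. The windows are from RefSeq (GRCh38.p14) and run from 250 bases before to 50 bases after an annotated start, and 63 of the 77 nuclear genes matched one. Each is written 5′ to 3′ on the strand of the gene, with matches to the motifs searched in capitals.
ATP5MC1 (chr17:48892537-48892836, plus strand): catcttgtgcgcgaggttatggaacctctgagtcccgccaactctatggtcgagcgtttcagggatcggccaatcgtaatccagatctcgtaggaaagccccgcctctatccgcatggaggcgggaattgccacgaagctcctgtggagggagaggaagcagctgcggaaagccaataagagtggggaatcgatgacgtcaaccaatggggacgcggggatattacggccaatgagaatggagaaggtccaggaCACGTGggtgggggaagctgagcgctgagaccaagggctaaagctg
NDUFB10 (chr16:1959288-1959587, plus strand): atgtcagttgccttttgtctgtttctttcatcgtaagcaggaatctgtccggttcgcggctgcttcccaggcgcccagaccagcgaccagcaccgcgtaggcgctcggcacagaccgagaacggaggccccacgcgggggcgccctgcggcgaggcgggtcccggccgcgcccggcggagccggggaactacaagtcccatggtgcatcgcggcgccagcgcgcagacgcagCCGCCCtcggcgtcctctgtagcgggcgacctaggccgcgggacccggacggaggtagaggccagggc
NDUFS7 (chr19:1383657-1383956, plus strand): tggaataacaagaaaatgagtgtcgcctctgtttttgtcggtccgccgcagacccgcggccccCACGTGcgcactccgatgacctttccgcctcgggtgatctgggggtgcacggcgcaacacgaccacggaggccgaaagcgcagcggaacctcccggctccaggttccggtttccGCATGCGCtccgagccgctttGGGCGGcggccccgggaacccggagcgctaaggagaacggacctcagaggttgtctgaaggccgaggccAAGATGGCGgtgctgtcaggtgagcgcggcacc
COX7B (chrX:77899218-77899517, plus strand): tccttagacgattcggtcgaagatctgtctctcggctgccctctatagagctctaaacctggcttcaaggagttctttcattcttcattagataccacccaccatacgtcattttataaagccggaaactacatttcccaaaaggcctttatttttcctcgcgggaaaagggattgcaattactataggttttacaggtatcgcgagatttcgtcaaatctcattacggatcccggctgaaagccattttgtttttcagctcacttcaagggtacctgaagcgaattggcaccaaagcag
NDUFA7 (chr19:8321326-8321625, minus strand): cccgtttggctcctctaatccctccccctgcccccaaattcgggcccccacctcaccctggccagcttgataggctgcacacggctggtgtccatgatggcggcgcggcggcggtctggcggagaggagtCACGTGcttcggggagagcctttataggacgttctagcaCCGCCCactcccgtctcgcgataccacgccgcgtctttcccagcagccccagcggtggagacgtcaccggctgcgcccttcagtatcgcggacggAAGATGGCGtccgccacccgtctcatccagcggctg

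Searched on both strands were GCGCATGC (NRF1), CCGGAAG (ETS factors such as GABPA), AAGATGGCG (YY1), GGGCGG (SP1), CACGTG (the E-box of MYC and USF factors) and TTGCNNAA (C/EBP). None of these strings contains another. Counting the annotated start as 0, the ATP5MC1 window holds an E-box at 4 and the NDUFB10 window an SP1 string at -18. NDUFS7 holds an E-box at -187, an NRF1 string at -73, an SP1 string at -52 and a YY1 string at 17. NDUFA7 holds an E-box at -120, an SP1 string at -81 and a YY1 string at 14, and the COX7B window holds none of the 6. A shared set of strings was thus present in a gene that fell and in a gene that rose.

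The NRF1 string was found in 20.6% of the 63 windows, against 3.05% of 35116 windows of the same length. The ETS string was in 31.7% against 10.3%, the YY1 string in 12.7% against 1.75%, the SP1 string in 61.9% against 45.0% and the E-box in 11.1% against 7.26%. The C/EBP string was in 6.35% (4 windows) against 10.5%. Members with the NRF1 string had a median log2 fold change of -0.45 (13 genes), and those without it -0.29. The E-box (-0.45 against -0.31), the SP1 string (-0.34 against -0.27), the C/EBP string (-0.42 against -0.32) and the YY1 string (-0.34 against -0.33) had the same order, and the ETS string the opposite one (-0.31 with it, 20 genes, and -0.34 without it). These are descriptions of letters in windows and were not tested.

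Genes that build, supply or regulate the chain were read against the same shares over all identifiers: 24.7% lower and 23.7% higher with TMM, and 17.2% lower and 32.3% higher with library totals, which move all genes up. Among proteins that build complex I, 11 of 17 assembly factor genes fell and 2 rose (median log2 fold change -0.43). COA1, an early assembly factor of the membrane arm, went from 57.3 and 53.6 TPM to 43.1 and 34.3 TPM (log2 fold change -0.70, SE 0.10, edgeR adjusted p = 0.0037), and NDUFAF8 from 70.4 and 63.8 TPM to 50.3 and 46.8 TPM (-0.65). NDUFAF5, an arginine hydroxylase acting on NDUFS7, went from 16.7 and 17.7 TPM to 25.8 and 27.9 TPM and rose (log2 fold change 0.46, SE 0.10, edgeR adjusted p = 0.015). With library totals 4 were lower and 2 higher.

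For complexes II and III, 6 of 12 assembly factors fell and none rose (median -0.38). BCS1L, which inserts the Rieske protein UQCRFS1, went from 46.2 and 47.0 TPM to 27.9 and 22.6 TPM (log2 fold change -1.06, SE 0.094, edgeR adjusted p = 0.00080). LYRM7, the chaperone that holds the Rieske protein before insertion, went from 14.5 and 13.5 TPM to 6.69 and 7.22 TPM (log2 fold change -1.19, SE 0.13, edgeR adjusted p = 0.0015). The log2 fold change of UQCRFS1 itself was -0.22. With library totals 5 of this list were lower and 1 higher.

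Of 25 complex IV assembly factors, 9 fell, 3 rose and 13 did not pass (median -0.20). COA7 went from 39.3 and 38.8 TPM to 16.8 and 14.4 TPM (log2 fold change -1.50, SE 0.085, edgeR adjusted p = 0.00026), and SCO1, a copper chaperone, from 43.2 and 41.7 TPM to 28.5 and 27.2 TPM (-0.79). The effective length of COA7 was 2226 and 2310 bases in Control and 2784 and 3218 bases in CEBPB. Its reads, recovered as TPM times effective length, were 1495 and 1647 in Control and 765 and 661 in CEBPB. The part of length in its fold change was not tested. COX10, the heme O synthase, went from 20.1 and 20.6 TPM to 39.4 and 33.8 TPM and rose (log2 fold change 0.66, SE 0.085, edgeR adjusted p = 0.0024). COX17, the copper donor, and COX11 rose as well (0.39 and 0.34). With library totals 4 of this list were lower and 6 higher. Of 5 complex V assembly factors, ATPAF1 fell (-0.29) and FMC1 rose (1.61), from 3.14 and 2.52 TPM to 7.21 and 12.3 TPM, and with library totals 0 were lower and 1 higher. FMC1 rested on only 26.8 and 22.9 recovered reads in Control and 52.3 and 58.0 in CEBPB. Its effective length was 498 and 494 bases in Control and 444 and 331 bases in CEBPB.

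Of 5 tested subunits and carriers outside the symbol patterns, 4 fell and 1 rose, and with library totals 2 were lower and 1 higher. They included CYCS, the somatic cytochrome c, which went from 285 and 283 TPM to 209 and 194 TPM and fell (log2 fold change -0.67, SE 0.058, edgeR adjusted p = 0.00076). NDUFAB1, the acyl carrier of complex I, and ATP5IF1, the inhibitor of the ATP synthase, fell (-0.36 and -0.43). COX7A2L, a supercomplex factor that binds complexes III and IV, went from 61.8 and 61.0 TPM to 97.7 and 86.6 TPM and rose (log2 fold change 0.41, SE 0.068, edgeR adjusted p = 0.0059). NDUFA4L2, a paralogue of NDUFA4, was called lower at levels under 1.5 TPM (-2.29), but it rested on 20 and 5 recovered reads in Control and 3 and 9 in CEBPB, which overlap, and it passed in 1 of 4 fits with a library left out. The tissue isoforms COX4I2, COX6A2, COX6B2, COX7A1, COX7B2 and COX8C were too low to be tested.

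Of 15 tested genes that maintain and transcribe mitochondrial DNA, 7 fell and none rose (median -0.20), and with library totals 5 were lower and 1 higher. TOP1MT, the mitochondrial topoisomerase, went from 78.0 and 75.6 TPM to 34.3 and 33.6 TPM (log2 fold change -1.36, SE 0.068, edgeR adjusted p = 0.00020). TWNK, the replicative helicase, went from 31.0 and 31.1 TPM to 17.1 and 19.3 TPM (-0.95). SSBP1, the single-strand binding protein, and TFAM, which packages the mitochondrial genome and starts its transcription, fell by less (-0.53 and -0.50). Of 19 tested genes for mitochondrial RNA processing and stability, 12 fell and none rose (median -0.46). LRPPRC, which stabilises mitochondrial messengers with SLIRP, went from 99.4 and 103 TPM to 75.8 and 70.5 TPM (log2 fold change -0.65, SE 0.063, edgeR adjusted p = 0.0010), and SLIRP from 262 and 254 TPM to 210.2 and 207 TPM (-0.48). PNPT1, an RNA-degrading enzyme, fell as well (-0.66). With library totals 7 of this list were lower and 1 higher.

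Among 12 tested regulators of respiratory genes, 5 fell and 3 rose (median -0.17), and with library totals 5 were lower and 5 higher. The share higher with TMM was near that over all identifiers. MYC, a growth regulator that binds the E-box, went from 229.7 and 245 TPM to 74.4 and 80.2 TPM (log2 fold change -1.80, SE 0.089, edgeR adjusted p = 0.00020). TFEB, a regulator of lysosome genes, went from 13.8 and 14.7 TPM to 4.21 and 4.47 TPM (log2 fold change -1.90, SE 0.13, edgeR adjusted p = 0.00044). PPRC1 and PPARGC1B, coactivators of the PGC-1 family, fell (-0.93 and -1.50), as did the nuclear receptor ESRRA (-0.57). CREB1 went from 34.7 and 32.2 TPM to 52.9 and 50.1 TPM and rose (log2 fold change 0.44, SE 0.073, edgeR adjusted p = 0.0056), and GABPA and GABPB1, the subunits of the ETS factor GABP, rose (0.41 and 0.53). NRF1 itself was among the 4 that did not pass.

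The enzymes that feed ubiquinone by other routes moved in both directions, 3 of 6 lower and 3 higher (median -0.06), on both scales. SQOR, the sulfide oxidase, was at 97.0 and 104 TPM in Control and 586 and 477 TPM in CEBPB. It rose (log2 fold change 2.22, SE 0.096, edgeR adjusted p = 0.00015), the largest rise among the genes of these lists. GPD2, the glycerol phosphate dehydrogenase, was at 14.3 and 18.6 TPM in Control and 83.2 and 61.4 TPM in CEBPB and rose too (log2 fold change 1.95, SE 0.17, edgeR adjusted p = 0.00081). ETFDH, which takes electrons from the flavoprotein ETF, rose (0.34), while ETFA and ETFB, the subunits of that flavoprotein, fell (-0.45 and -0.59). DHODH, the pyrimidine synthesis enzyme, went from 15.4 and 12.0 TPM to 7.20 and 7.79 TPM and fell (log2 fold change -1.05, SE 0.17, edgeR adjusted p = 0.0051). In ubiquinone synthesis 3 of 11 genes fell and 1 rose (median 0.08), a share lower near that over all identifiers, and with library totals 2 were lower and 4 higher. COQ8A went from 60.2 and 60.9 TPM to 30.4 and 33.8 TPM (log2 fold change -1.09, SE 0.095, edgeR adjusted p = 0.00076), and PDSS1 and COQ3 fell by less (-0.70 and -0.58), whereas COQ7 rose (0.51). Of the genes named from these lists, NDUFAF5, COX17, COX11, ATPAF1, NDUFAB1, ATP5IF1, COX7A2L, GABPA, GABPB1, ETFDH and COQ7, besides NDUFA4L2, missed the threshold in at least 1 fit with a library left out.

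The nuclear subunits differed in the GC content of their coding transcripts (GENCODE v29), and this moved with the fold changes. Split into 3 groups by GC, the 26 genes with the lowest GC (34.4% to 46.0%) had a median log2 fold change of -0.28, the next 25 genes -0.29 and the 26 genes with the highest GC (53.5% to 68.7%) -0.44. The 11697 tested identifiers with a coding transcript were split at the same GC limits, with the outer groups open-ended. Their medians were 0.19, 0.04 and -0.19. The subunits were lower than that background in each range. Spearman's rho between GC and log2 fold change was -0.33 across the 77 genes and -0.28 across 11697 identifiers, given as a description, since genes share the same 4 libraries. The part of GC in the fold changes was not tested.

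**Figure D5:**
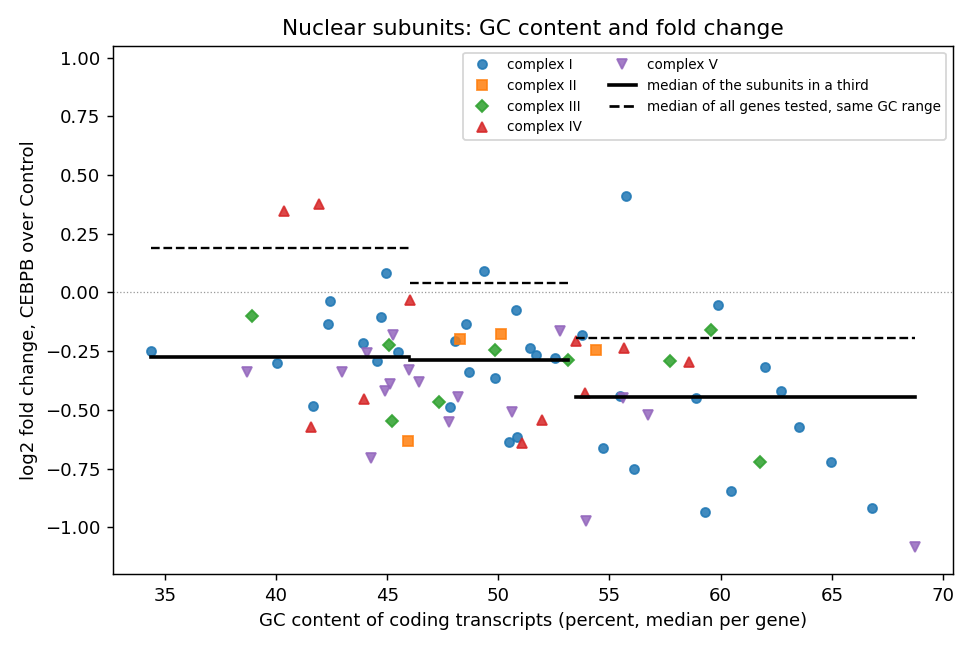
Log2 fold change of each of 77 nuclear subunits (CEBPB over Control) against the GC content of its coding transcripts. A solid line is the median of each of 3 GC groups. A dashed line is the median of all tested identifiers with a coding transcript, split at the same GC limits with the outer groups open-ended. The solid lines are at -0.28, -0.29 and -0.44 and the dashed lines at 0.19, 0.04 and -0.19.

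Effective length, the mean usable transcript length of a gene, changed by over 5% between the groups in 16 of the 90 genes, and in 11 of the 90 the libraries of the groups also did not overlap. Over all identifiers tested, 44.0% exceeded 5%, and 28.7% did so without overlap. NDUFA10 had effective lengths of 1361 and 1480.0 bases in Control and 1666 and 1633 bases in CEBPB. NDUFS1 had 2135 and 2324 bases in Control and 2499 and 2669 bases in CEBPB, and NDUFC2 had 386 and 376 bases against 431 and 423 bases. NDUFS8 was shorter in CEBPB, at 631 and 495 bases against 660 and 634 bases. Isoform use and the estimate of length cannot be told apart in gene-level files.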

How the data were processed

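Poly(A) RNA of OCI-AML3 cells was read in 4 libraries, 2 CEBPB and 2 Control. Per the submitters' processing notes, Trimmomatic 0.39, kallisto 0.46.2 and the GRCh38 build were used. Which annotation was used, whether the strand was, and how transcripts were summed to genes is not given in the sources used here. The authors deposited estimated counts, TPM and another unit, effective length in bases, all at gene level, and per the submitters' processing notes kallisto was among the tools. The deposited counts equal TPM times 1 constant per library, so they are not reads per gene.

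Counts were rounded, filtered with filterByExpr (13698 identifiers left), scaled by TMM and tested with edgeR 4.0.16 (R 4.3.3), quasi-likelihood F test, Benjamini-Hochberg adjusted p under 0.05 over all identifiers tested. The SE is the size of the log2 fold change divided by the root of F. The biological coefficient of variation was 11.3%. The procedure was tested on simulated counts. Alternatives were library totals, DESeq2 size factors, upper quartile, DESeq2 1.42.0, limma 3.58.1 with voom or on log2(TPM + 1) or log2(TPM + 0.1), other filters, reads recovered as TPM times effective length, a replicate block and each library left out. Gene positions and GC come from GENCODE v29.

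The rule for genes with values in every library took the 3 smallest adjusted p in each complex, every rise, every change of 1.5-fold or more and all mitochondrial genes, and up to 4 genes in each other list. The members and lists were chosen with earlier results of these data known. A member counted in the totals is not reported here by name.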

Additional observations from a re-analysis of the deposited data

How the results depend on the processing

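Nuclear genes called lower numbered 52 with TMM, 29 with library totals and with limma on log2(TPM + 1) or log2(TPM + 0.1), 5 in the 1.5-fold test and 28 to 51 with a library left out. Those called higher numbered 3, 0 in the 1.5-fold test and 1 to 3 with a library left out. Mitochondrial genes called lower numbered 6, 11 with DESeq2, 11 with recovered reads, 2 with library totals, 0 in both log2 TPM fits, 0 in the 1.5-fold test and 0 to 12 with a library left out. Over all 13698 identifiers tested, 3390 were called lower with TMM, 2913 with DESeq2, 2360 with library totals and 1188 in the 1.5-fold test. The log2(TPM + 1) and log2(TPM + 0.1) fits called 2448 and 2408 lower, and recovered reads 4209 of 13704. With library totals, the mitochondrial share lower was near the 17.2% over all identifiers. Library totals and both log2 TPM fits are on nearly the same scale, since the deposited counts equal TPM times 1 constant per library. Their likeness is thus not separate support. The cause of the differences between settings was not tested.

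With replicate number as a block, 48 nuclear genes were lower, 3 higher and 11 mitochondrial genes lower. The deviations of same-numbered libraries correlated at -0.01 over all identifiers tested. That value does not settle whether the numbers pair the libraries. The ratio of mitochondrial over nuclear TPM was higher in replicate 2 of both groups. The log2 ratio of mitochondrial over nuclear TPM comes from no fit and has no blocked value.

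Medians kept their sign in all alternatives. In order, complexes I to V and the mitochondrial genes had -0.12, -0.042, -0.11, -0.11, -0.24 and -0.15 with library totals, -0.12, -0.044, -0.11, -0.12, -0.24 and -0.15 with log2(TPM + 1) and -0.12, -0.044, -0.11, -0.12, -0.24 and -0.15 with log2(TPM + 0.1). With recovered reads complexes II, III and V had -0.26, -0.36 and -0.44, and with upper-quartile scaling complex V had -0.40. With a library left out, complex II ranged from -0.27 to -0.20, complex IV from -0.37 to -0.22 and complex V from -0.44 to -0.38. The log2 ratio of mitochondrial over nuclear TPM ranged from -0.050 to 0.12 with a library left out.

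The log2 fold change reversed to positive with library totals, log2(TPM + 1) and log2(TPM + 0.1), in that order, in ATP5MF (0.013, 0.013, 0.013), COX7A2 (0.15, 0.15, 0.15), NDUFA3 (0.13, 0.13, 0.14), NDUFB3 (0.045, 0.048, 0.048), NDUFB4 (0.074, 0.074, 0.074), NDUFS4 (0.14, 0.14, 0.14), NDUFS5 (0.044, 0.042, 0.043), NDUFV3 (0.11, 0.093, 0.098), SDHC (0.0013, 0.0030, 0.0031), UQCRB (0.078, 0.078, 0.079), UQCRC1 (0.018, 0.018, 0.018). These settings share nearly the same scale, so their likeness follows from that. In none of these 11 had the gene passed the test. With recovered reads NDUFA3 was 0.22. With a library left out, values ranged across 0 in NDUFV3 from -0.20 to 0.050, NDUFS4 from -0.13 to 0.071, NDUFA3 from -0.22 to 0.13 (0.013 without CEBPB replicate 1), NDUFA6 from -1.24 to 0.028, NDUFC1 from -0.026 to 0.21, COX7A2 from -0.071 to 0.021 and MT-ND6 from -0.56 to 0.072.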
